A study of Mus musculus with 4 samples.

Results

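TOP2B cleavage complexes were examined at 6 glutamate receptor genes, the kainate receptor subunit genes Grik1, Grik2, Grik3, Grik4 and Grik5 and the delta receptor gene Grid1. An entry of the peak list was assigned to a gene when its summit, the base of highest signal in the peak, lay between the gene's ends in GRCm38 or within 10 kb of them. This gave 47 entries of 35539 in the list, 42 inside the genes and 5 in the flanks. Entries were assigned by position alone, without regard to their fold or q, while the 6 genes were chosen with earlier results of these data known.

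The list came from wild-type cortical neurons of Swiss-Webster mouse embryos at embryonic day 16, grown as dissociated cultures. All of them received etoposide, 50 µM for 30 min, before collection, and there was no untreated culture among the 4 libraries. The 4 were 2 libraries of TOP2Bcc-seq ChIP, made by native immunoprecipitation with a TOP2B antibody, and 2 libraries of TOP2Bcc-seq input DNA. The deposited peaks were pooled over libraries, so that no value below has a replicate, and library depth is unknown. Intervals cover counting error only. The labels do not say whether the libraries came from separate cultures. A list of DNA peaks does not allow the cell type to be checked against expressed markers.

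TOP2B is the type II topoisomerase of postmitotic neurons. It passes one DNA duplex through a break in another and is joined covalently to the broken ends while they are open. Etoposide slows religation, so that these intermediates can be recovered with the protein attached. Kainate receptors are glutamate-gated cation channels found before and after the synapse. The products of Grik1, Grik2 and Grik3 form working channels alone or together. The products of Grik4 and Grik5 bind kainate with high affinity and need a partner from the first group to make a working channel. Grid1 encodes a delta receptor, which is related in sequence, acts as a synaptic organiser and binds secreted cerebellin proteins that link it to presynaptic neurexins.

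Of the 6 genes, Grik3 was the one with a summit within 1 kb of an end. RefSeq sequence upstream of a transcription start was at hand for 4 of the 6 genes, Grik2, Grik3, Grik4 and Grik5, and with it their direction of transcription. The 250 bases before each start are printed 5′ to 3′ on the transcribed strand (GRCm38.p6), to set the start region beside the Grik3 summit against those of the other 3 genes. Capitals mark the letters GGGCGG, or CCGCCC on the other strand, the GC box that Sp1-type factors are known to bind. The windows were chr4:125490446-125490695 for Grik3 (plus strand), chr10:49788755-49789004 for Grik2, chr9:42944372-42944621 for Grik4 and chr7:25072370-25072619 for Grik5 (minus strand for these 3). All 4 windows lay inside the gene spans used here, whose ends on that side were 125490259, 49790161, 42945000 and 25075694 in this order. Distances in bp to a start are counted from the RefSeq starts, and positions in percent of length from the span ends.
Grik3: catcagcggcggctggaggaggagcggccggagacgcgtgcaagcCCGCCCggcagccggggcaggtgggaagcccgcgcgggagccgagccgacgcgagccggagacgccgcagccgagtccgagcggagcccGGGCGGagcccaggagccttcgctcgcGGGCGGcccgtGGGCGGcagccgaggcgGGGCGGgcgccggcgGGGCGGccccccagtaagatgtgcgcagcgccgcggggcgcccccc
Grik2: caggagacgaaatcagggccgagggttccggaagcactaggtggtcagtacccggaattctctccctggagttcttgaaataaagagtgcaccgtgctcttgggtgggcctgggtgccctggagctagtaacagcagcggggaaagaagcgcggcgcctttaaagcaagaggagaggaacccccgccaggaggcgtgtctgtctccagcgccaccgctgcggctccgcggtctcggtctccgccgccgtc
Grik4: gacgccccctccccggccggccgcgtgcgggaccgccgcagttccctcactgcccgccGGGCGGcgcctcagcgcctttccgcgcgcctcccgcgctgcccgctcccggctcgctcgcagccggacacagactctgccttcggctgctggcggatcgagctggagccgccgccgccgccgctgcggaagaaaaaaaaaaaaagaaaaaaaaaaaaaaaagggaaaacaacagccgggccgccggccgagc
Grik5: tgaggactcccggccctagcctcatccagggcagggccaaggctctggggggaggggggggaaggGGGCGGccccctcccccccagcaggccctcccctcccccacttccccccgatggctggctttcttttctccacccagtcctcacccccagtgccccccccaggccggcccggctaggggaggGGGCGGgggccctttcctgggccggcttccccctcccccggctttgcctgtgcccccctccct

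No entry of the list overlapped any of these 4 windows. The Grik3 window was 82.0% G and C with 42 CpG dinucleotides, higher than 99.3% and 99.1% of the 32851 windows in the RefSeq table. It held 6 GC boxes, which began between 205 and 46 bases before the start. Grik4 had 69.6% G and C, 36 CpG and 1 GC box, and Grik5 had 75.2%, 8 CpG and 2 GC boxes. Grik2 had 62.8%, 20 CpG and no GC box. For comparison, the median window held 52.4% G and C and 6 CpG, and 32.7% of windows held at least 1 GC box. The AP-1 letters TGANTCA and the cyclic AMP response element TGACGTCA, searched on both strands with overlapping matches counted, were found in none of the 4 and in 6.75% and 1.55% of all windows. TATAAA was in none of the 4 either, against 12.4% of all. The E-box letters CANNTG were found 1 time in Grik3 and not in Grik2, Grik4 or Grik5, against 66.2% of all windows. These matches describe letters in the window and not bound sites.

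The summit beside the Grik3 start lay at 125489655 on chromosome 4, 1041 bp upstream of the start and 604 bp outside the lower end of the gene. It was a weak entry, with a fold enrichment of 2.25 and a q of 0.405. Fold enrichment is the peak caller's ratio of ChIP pileup to control at the summit, and q its p-value after correction over the genome, both as deposited by the authors. From the deposited fold and p, 12 fragments covered this summit over a control level of 4.78, which was the lowest and most common level in the list. A second entry lay farther upstream at 125484185, 6511 bp from the start, with a fold of 2.49 and a q of 0.158. In the other 3 genes the nearest summit was 4283 bp downstream of the start in Grik5, 13874 bp upstream in Grik2 and 120810 bp upstream in Grik4. Genes with a summit within 1 kb of either end thus numbered 1 of 6, against 8.3% of the 21631 protein-coding genes. With a window of 500 bp there was none, and with 5 kb there were 2, Grid1 being the second. The share over all genes is not given here for these other windows.

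All 6 genes held at least 1 entry, as did 53.4% of protein-coding genes and 81.9% of the 4941 that are 50 kb or longer. Grik2, which encodes a subunit widely used in the forebrain, had the most, with 11 entries in 696 kb (95% exact Poisson interval 5.49 to 19.7). Grid1 followed with 10 in 763 kb (4.80 to 18.4) and Grik3 with 9 in 224 kb (4.12 to 17.1). Grik4 had 7 in 427 kb (2.81 to 14.4), Grik1 had 6 in 395 kb (2.20 to 13.1) and Grik5 had 4 in 65.8 kb (1.09 to 10.2). The intervals overlap throughout, so the order of these counts is not resolved. Longer genes tended to hold more entries (Spearman rho 0.77 over the 6 genes). They held fewer per length (rho -0.83 over the 6, against -0.0305 over the 4941 genes of 50 kb or more), a description of 6 values from 1 list.

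Per length, Grik5 and Grik3, the shortest of the 6, stood above the other 4. Counted with the flanks, Grik5 had 4.66 entries per 100 kb (interval 1.27 to 11.9) and Grik3 had 3.69 (1.69 to 7.004). Grik4 had 1.57 per 100 kb, Grik2 had 1.54, Grik1 had 1.45 and Grid1 had 1.28 (0.612 to 2.35). The intervals of Grik5 and Grik3 overlap those of the other 4. The densities of Grik5 and Grik3 were higher than those of 96.0% and 91.0% of protein-coding genes of 50 kb or more, and the other 4 lay between the 45.2% (Grid1) and 55.8% (Grik4) points of the same genes. The median over the 6 was 1.55 per 100 kb, against 1.37 for those long genes. In every protein-coding gene the count was compared with the share of the chromosome that the gene covers, by a two-sided exact binomial test whose p-values were adjusted over all 21631 genes (Benjamini-Hochberg). At the rate of chromosome 4, 3.77 entries would fall in Grik3, so the 9 observed were 2.39 times that number (1.09 to 4.54, unadjusted exact p = 0.0151, adjusted p = 0.460). For Grik5 the 4 entries were 3.04 times the 1.31 at the rate of chromosome 7 (0.829 to 7.79, unadjusted exact p = 0.0445, adjusted p = 0.727), and the interval, taken from the Poisson count alone, includes 1. None of the 6 genes passed at an adjusted p of 0.05, a level at which 0.236% of protein-coding genes were called higher and 0% lower. At an unadjusted p of 0.05, 2 of 6 were higher. The background was 6.62% over all genes and 7.59% over those of 50 kb or more. None of the 6 was lower, against 0.162% over all genes. All 35 lower genes were among the 4941 of 50 kb or more. With 1.31 entries expected, Grik5 could not have been called lower even with no entry. The test takes summits as independent, and neighbouring summits are not.

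Grik1, Grik2, Grik4 and Grid1 lay close to the rate of their chromosomes, at 1.09, 1.06, 1.01 and 1.07 times. Their unadjusted p-values by the same exact test were 0.829, 0.755, 0.850 and 0.742. All 6 ratios were above 1 on the chromosome rate, but against the rate in protein-coding genes of the same chromosome only Grik3 (2.02) and Grik5 (2.52) were above 1. Grik1 (0.980) and Grid1 (0.865) were below 1 on the rate over all autosomes, and Grik4 (0.799) and Grid1 (0.867) on the rate of the span and 1 Mb on each side. On that last rate Grik3 fell to 1.53 times and Grik5 to 1.68 times, with unadjusted exact p-values of 0.185 and 0.303. The regions around both genes were thus richer in entries than their chromosomes. Without the flanks, Grik3 had 7 entries (2.02 times, unadjusted exact p = 0.0933) and Grik5 had 3 (2.98 times, unadjusted exact p = 0.0817).

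**Figure D1:**
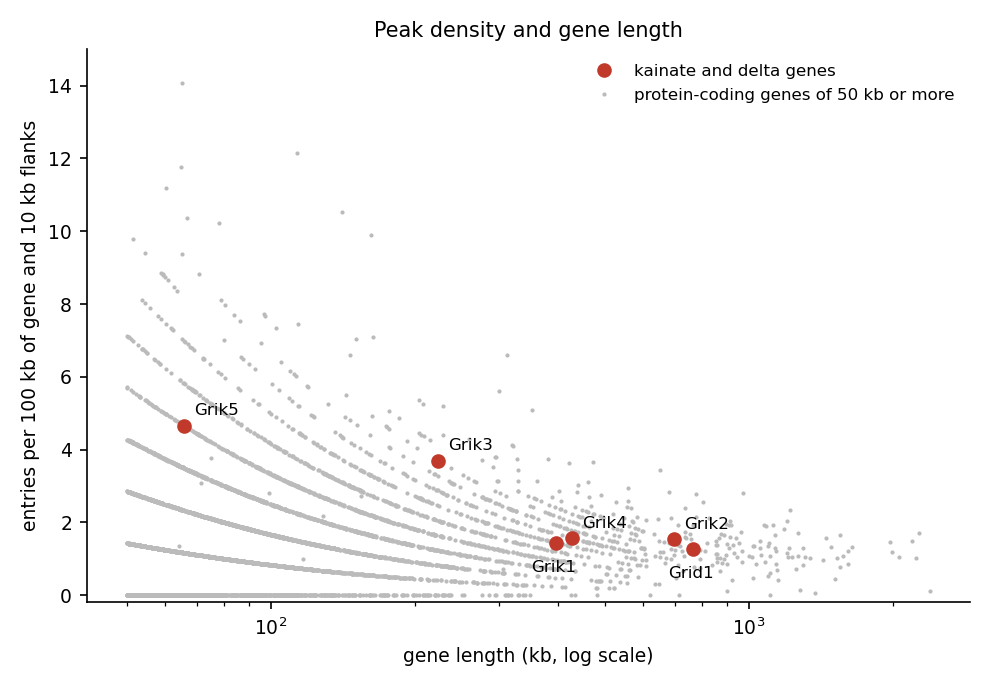
Entries per 100 kb of gene and 10 kb flanks (vertical axis) against gene length in kb (horizontal log axis) for protein-coding genes of 50 kb or more (grey) and the kainate and delta receptor genes (red). Grik5 at 4.66 and Grik3 at 3.69 entries per 100 kb lie above the other 4, which sit between 1.28 and 1.57. The grey curves arise because counts are whole numbers.

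The 6 genes differed in where along their length the summits lay. With 3 to 11 internal summits per gene these positions are a description, and no difference between genes was tested. In Grik3, transcribed toward higher coordinates, the 7 summits inside the gene ended at 68.0% of its length from the start, and the last 71.6 kb held none. A run of 4 summits between 125552360 and 125578421 covered 26.1 kb, from 27.7% to 39.4% of the length. Grik4 showed the opposite arrangement, as its 7 summits all lay beyond 53.0% of the length from the transcribed start. The first 226.3 kb of Grik4, counted from its upper end, held no summit. In Grik2 the longest interval without a summit was 209.7 kb, from 49253025 to 49462758, and another of 161951 bp set the last summit, at 49765263, apart from the rest. The run of 5 summits from 49462758 to 49603312, 140.6 kb long, lay between these intervals and included the 3 Grik2 entries with a q of 0.05 or less.

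Grik5, the shortest of the 6, had all 3 of its internal summits in the 30% of the gene nearest to the transcribed start, and 46.2 kb at the other end without any. Its remaining entry, at 25003754, lay 6095 bp outside the lower end. For Grik1 and Grid1 positions are given from the lower coordinate, since no direction was taken from the RefSeq table. In Grik1, 5 of 6 summits lay in the lower 30% of the gene, and 255.6 kb passed before the last one at 88268985. Grid1 had its summits in the lower 64.0% of the gene, with 275.1 kb empty up to its upper end. When genes were cut into 5 equal parts along transcription, the 28 internal summits of the 4 genes with a known direction were split 3, 9, 5, 5 and 6 from start to end. In percent these are 10.7, 32.1, 17.9, 17.9 and 21.4, against 18.4, 18.3, 19.1, 20.5 and 23.6 for 9534 summits in 3863 long protein-coding genes. The split of the 28 summits was not tested, and most of the 9 in the next-to-first part came from Grik3 (4) and Grik2 (3).

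**Figure D2:**
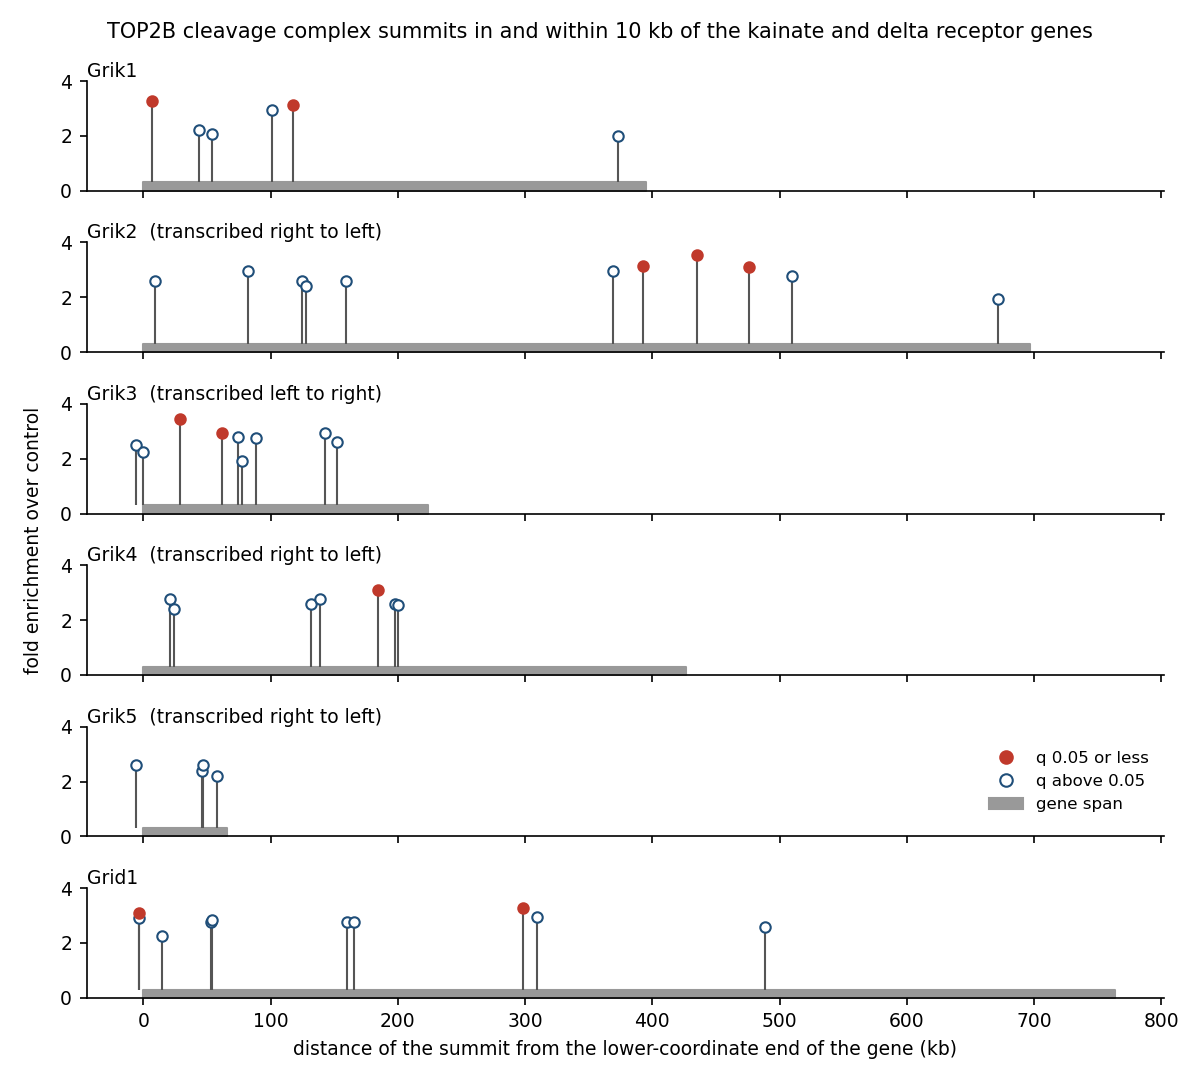
Each panel shows 1 gene, with the distance of every summit from the gene's lower-coordinate end in kb on the horizontal axis and its fold enrichment over control on the vertical axis; grey bars are gene spans and filled red points have a q of 0.05 or less. Summits of Grik4 are absent from the right part of the gene, where transcription begins, and those of Grik3 from the part where it ends.

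The strongest entry of all 47 was in Grik2. It spanned 49528759 to 49529075 on chromosome 10, with a fold of 3.55, a q of 0.00437 and 20 fragments over a control level of 4.91. This fold was higher than that of 96.9% of entries on the chromosomes. The 11 folds of Grik2 were 2.59, 2.94, 2.59, 2.42, 2.59, 2.94, 3.15, 3.55, 3.11, 2.77 and 1.94 in coordinate order. The highest 3 were neighbours, at 49486018, 49528902 and 49569808. The lowest, 1.94, was the nearest to the start among these 11, 23491 bp downstream of it, and had the highest control level of the gene, 7.76.

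Grik3, whose subunit makes receptors of low glutamate sensitivity, had folds of 2.49, 2.25, 3.46, 2.93, 2.79, 1.91, 2.77, 2.94 and 2.59 in coordinate order. Its strongest entry, at 125519413 and 28717 bp downstream of the start, had a fold of 3.46, a q of 0.0102 and 19 fragments. The next by q, at 125552360 (2.93, q 0.0390), was also the widest of the 47, at 476 bp. The control level was 5.82 at 4 of the 9 summits and 4.78 at the other 5. The fold of 1.91 at 125567959, with a q of 0.594, was the weakest of the 47.

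In Grik1, a subunit gene used by many inhibitory neurons, folds were 3.29, 2.20, 2.05, 2.94, 3.11 and 2.01. The entries at 87902565 (3.29, q 0.0208) and 88013408 (3.11, q 0.0390) stood out from a group of 3 near 2, all of which had raised control levels of 5.82 to 6.46. Of the 6 Grik1 summits, 4 also lay in long noncoding RNA genes annotated within the gene (4930590A17Rik, LOC115486002 and Gm33207). The Grik3 summit at 125552360 likewise lay in one, Gm32807, which makes 5 of the 47 entries. The share of all entries in such genes is not given here. Whether such a summit belongs to one transcript or the other cannot be told from position.

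The highest folds of the high-affinity subunit genes were below those of the other 4. For Grik4 the margin was small, 17 fragments against 18 at the top entries of Grik1 and Grid1, all over a control level of 4.78. By median fold the order did not hold, as Grik4 (2.59) was above Grik1 (2.57), while Grik5 (2.49) was the lowest. Grik4 had folds of 2.77, 2.42, 2.59, 2.77, 3.11, 2.59 and 2.55, and only the one at 42702753 had a q of 0.05 or less (3.11, q 0.0390, 17 fragments). Grik5, which encodes the most widespread high-affinity subunit, had folds of 2.59, 2.39, 2.59 and 2.20, with 14 or 15 fragments at each summit. Its lowest q was 0.140, so the higher density of Grik5 rests on 4 entries of which none is strong. With only entries of q 0.05 or less, or only those at or above the median fold of the list, Grik5 had 0 entries.

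Grid1 had folds of 3.08, 2.92, 2.25, 2.76, 2.83, 2.77, 2.77, 3.29, 2.94 and 2.59. The highest, 3.29 at 35118340, had a q of 0.0208 and 18 fragments. The first 2 entries formed the closest pair of the 47, at 34816282 and 34816685 on chromosome 14, 403 bp apart and 3721 and 3318 bp outside the lower end of the gene. Their q-values were 0.0318 and 0.0542. A second close pair lay inside the gene at 34873012 and 34873760, 748 bp apart. Mir346, a microRNA gene within Grid1, held no summit, the nearest being 20.8 kb away.

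The closest pair of summits was 966 bp apart in Grik5 (25056026 and 25056992), 2481 bp in Grik4 (42716179 and 42718660), 3050 bp in Grik3 (125564909 and 125567959) and 3857 bp in Grik2 (49218003 and 49221860). In Grik1 the closest 2 summits, 87939665 and 87949729, were 10064 bp apart. Apart from Grik3, none of the genes had a summit within 1 kb of an annotated end, and only 8.3% of protein-coding genes had one. The distances that follow have no background over all genes beside them. Only summits inside a gene or within 10 kb of it were searched. The nearest such summit lay 3318 bp from an end in Grid1, 6095 bp in Grik5 and 6664 bp in Grik1. It lay 9286 bp from an end in Grik2 and 21283 bp in Grik4.

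**Figure D3:**
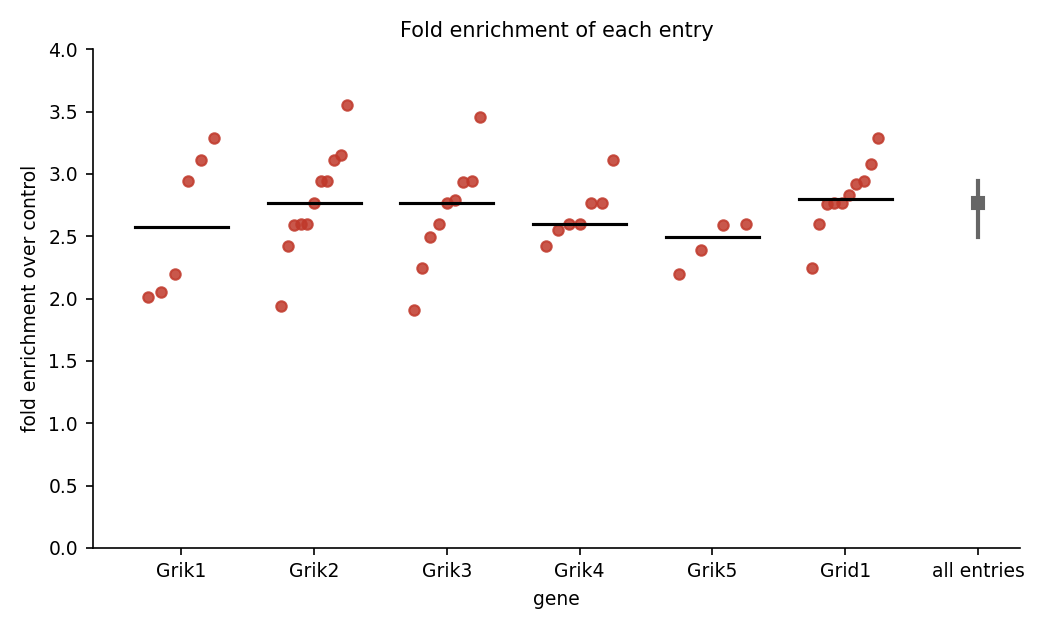
Fold enrichment over control (vertical axis) of each of the 47 entries by gene (red points), with the median per gene as a black line and the median with quartiles of all entries on the chromosomes as a grey square and bar. Gene medians run from 2.49 in Grik5 to 2.80 in Grid1, and all lie inside or at the edge of the quartiles of the whole list, 2.49 and 2.94.

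Pooled over the 6 genes, the entries had values close to those of the whole list. The median fold was 2.77 (quartiles 2.52 and 2.94) for the 47 and 2.77 (2.49 and 2.94) for all 35505 entries on the chromosomes. A q of 0.05 or less was found at 10 of the 47 entries, or 21.3%, against 23.4% of all. The 10 were 3 in Grik2, 2 each in Grik1, Grik3 and Grid1, 1 in Grik4 and 0 in Grik5. The median width was 212 bp for the 47 and 222 bp for all, and the median summit held 15 fragments in both. The control level was at its common value of 4.78 at 28 of the 47 summits (59.6%), against 71.1% of all. Another summit lay within 5 kb of 14 of the 47 (29.8%), against 17.3% of all, and the median distance to the nearest summit was 10064 bp for the 47 and 20217 bp for all. These shares describe 6 loci and were not tested.

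The 6 genes, at 1.28 to 4.66 entries per 100 kb, can be set beside AMPA and NMDA receptor genes, the channels of fast excitatory transmission. Densities of these 11 genes ran from 0 to 7.87 per 100 kb. The 4 AMPA receptor genes had 10 entries and the 7 NMDA receptor genes 22, without regard to length or chromosome. Gria3, an AMPA receptor gene, lies on chromosome X, which had 0.116 entries per 100 kb, against 1.19 to 1.84 on the autosomes. Its 1 entry in 278 kb was 2.91 times the rate of that chromosome (0.0736 to 16.2). Short genes of these families had high densities on few entries, such as Grin1 with 3 entries (6.25 per 100 kb) and Grin2c with 3 in its flanks (7.87 per 100 kb). At an unadjusted p of 0.05, 3 of the 11 were higher than their chromosomes, against 6.62% of all protein-coding genes. They were Grin2c (p = 0.0342 by the exact test), Grin1 (exact p = 0.0424) and Gria2 (exact p = 0.0432). Their ratio intervals, from the Poisson count alone, include 1 (0.883 to 12.5, 0.809 to 11.5 and 0.859 to 6.18). Gria2 had 5 entries, 2.65 times the chromosome rate, and 4 of them had a q of 0.05 or less. The 1 lower gene at that level was Gria1, against 0.162% of all protein-coding genes. All of that share, 35 genes, came from the 4941 genes of 50 kb or more, to which Gria1 belongs. Gria1 held no entry in 319 kb, where 6.23 would fall at the rate of chromosome 11 (unadjusted exact p = 0.00391, adjusted p = 0.263). The intervals of the 4 longest of the kainate and delta genes all include the upper limit of the Gria1 interval, 1.09 per 100 kb. None of these 11 genes passed at an adjusted p of 0.05.

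**Figure D4:**
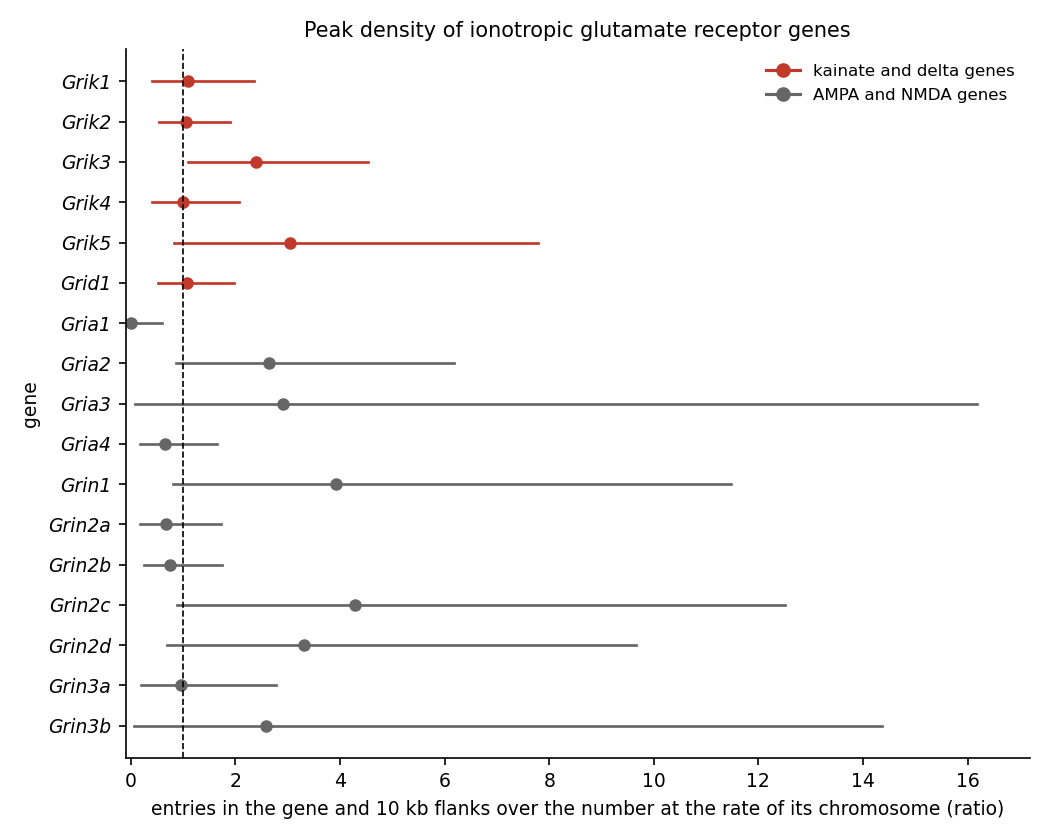
Ratio of entries in each gene and its 10 kb flanks to the number at the rate of its chromosome (horizontal axis), for the kainate and delta receptor genes (red) and for the AMPA and NMDA receptor genes (grey). Points are ratios, lines 95% exact Poisson intervals and the dashed line a ratio of 1; of the red genes the interval of Grik3 alone (1.09 to 4.54) excludes 1.

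Genes for partners of these receptors were looked at in the same way, as a list of 16 auxiliary, ligand and anchoring genes. Of these, 9 had at least 1 entry, against 53.4% of all protein-coding genes. None had a summit within 1 kb of an end, against 8.3%. None passed the density test at an adjusted p of 0.05, where 0.236% of all genes were higher. At an unadjusted p of 0.05 none passed either, against 6.62% higher and 0.162% lower over all genes. The median density over the 16 was 1.45 per 100 kb, against 0.988 for all protein-coding genes and 1.37 for those of 50 kb or more. The median ratio of the 16 to the chromosome rate was 1.03. Of the 16, 8 had a ratio above 1, against 45.1% of all protein-coding genes. Neto1 and Neto2, which encode auxiliary subunits of kainate receptors, had 4 and 3 entries, 2.26 and 2.31 times the rate of their chromosomes. Of the 4 cerebellin genes, Cbln3 had 1 entry, in its flanks, and Cbln1, Cbln2 and Cbln4 had none. Of the neurexin genes listed, Nrxn3 had 20 entries, at 0.907 times the chromosome rate, and Nrxn2 had none. Grip1 and Grip2, which encode scaffold proteins with PDZ domains, had 11 and 3. Dlg4, the gene of the postsynaptic scaffold PSD-95, had 2, and Pick1 and Klhl24 had 1 each.

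Protein-coding genes of like length and number of entries were found for each of the 6. The nearest were Adk for Grik1 (6 entries in 396 kb), Grip1 for Grik2 (11 in 634 kb) and Clasp1 for Grik3 (9 in 220 kb). For Grik4 it was Ncald (7 in 426 kb), for Grik5 Cacna1g (4 in 66.0 kb) and for Grid1 Dgkb (10 in 754 kb). Likeness was the sum of the absolute log2 ratios of length and of entries plus 1, over all protein-coding genes, and it was 0.0016 for Ncald and 0.14 for Grip1. The next 2 by this measure were Ano4 and Palld for Grik1, Galnt13 and Kcnma1 for Grik2, and Ralgps1 and Dysf for Grik3. They were Glis3 and Camk1d for Grik4, Tspan11 and Itpr3 for Grik5, and Ptprn2 and Adgrl3 for Grid1.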

How the data were processed

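TOP2Bcc-seq was analysed from 1 deposited narrowPeak list without a header, pooled by the authors over libraries. Per the submitters' processing notes, FastQC, Trimmomatic, BWA, SAMtools and MACS2 were used with builds mm10 and GRCm38.p6; for versions, settings and the libraries pooled, nothing is given in the sources used here. For each peak the deposited values are its fold enrichment (a linear ratio), its −log10 p, its −log10 q and a display score that was not tested. Start, end and summit positions were turned into 1-based coordinates.

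The 35505 entries on chromosomes 1 to 19 and X were used and 34 elsewhere were left out. Pileup and control level were reconstructed as the whole-number pileup that satisfies both fold, with 1 added to each term, and a Poisson p within 0.002 of −log10 p. This was unique for 35497 entries and for all 47 at the 6 genes. Genes came from RefSeq (GRCm38.p6), and all 6 symbols matched. Chromosome rates are entries per bp between the first and last summit. Exact binomial tests were run on all 21631 protein-coding genes with Python 3.11.15 and SciPy 1.17.1, after tests on simulated data. Named genes were the 6 members, 11 AMPA and NMDA receptor genes, those of 16 partner genes with an entry, and the 3 nearest genes in length and entries. A few listed genes are not reported here. Partner genes without an entry, and runs of summits, were named after their values were seen. Members, lists and tests were chosen with earlier results of these data known. Alternatives changed the entries, their placement, flanks, rate and end window.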

Additional observations from a re-analysis of the deposited data

How the results depend on the processing

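No paired analysis was possible because the list is pooled over libraries, and for the same reason no library could be left out. With only entries of q 0.05 or less there were 10 entries at the 6 genes, with a median fold of 3.13, and 0 genes with an end summit. With only entries at or above the median fold there were 24 entries, with a median fold of 2.94, and 0 genes with an end summit. The number of genes with an end summit was 0 with a window of 500 bp and 2 with 5 kb. The ratio of Grik5 to its chromosome was 0 in both stricter lists, which hold none of its 4 entries. The other 21 summary values, from overlap of whole intervals, merging of summits within 500 bp, no flanks or 50 kb flanks and 3 other rates among others, stayed within 1.5 times of the reported counts or inside the intervals of the reported values. The number of the 6 genes past the density test was 0 under all 9 alternatives. Over all protein-coding genes that count was 51, and it ran from 3 (rate within 1 Mb on each side) to 421 (50 kb flanks). Of the 54 ratios of single genes, 45 kept their side of an unadjusted p of 0.05. All ratios of Grik1, Grik2, Grik4 and Grid1 were among the 45, and they were above that p in every setting. The remaining ratios, all in Grik3 and Grik5, were no longer at or below it. Of these, 7 were still above 1 and 2 were 0 (Grik5 in the stricter lists). Peaks near the calling limit, with 12 to 20 fragments at a summit, limit what can be said of any 1 entry.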
